A study of Mus musculus with 6 samples.

Results

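The mRNA of 9 genes that move acid and base across membranes, or catalyse the hydration of carbon dioxide, was followed in mouse bone marrow cells grown in high potassium. The genes were chosen by name: the bicarbonate carriers Slc4a2 and Slc4a7, the monocarboxylate carriers Slc16a1 and Slc16a3, the proton channel Hvcn1, and the carbonic anhydrases Car2, Car4, Car9 and Car13. All 9 were among the 19162 genes of the deposited table, and all 9 passed the filter on low counts that left 13326 genes for testing. The cells came from C57BL/6J mice and were cultured for 4 days with 40 ng/mL of GM-CSF, a cytokine that expands myeloid cells. The control group (3 libraries, numbered 1, 2 and 4) had no addition, and the KCl group (3 libraries, with the same numbers) had 34.7 mM of extra potassium chloride. The series names the cells myeloid-derived suppressor cells, and the labels do not say whether the libraries came from separate mice or separate cultures. P-values therefore measure only the spread between these libraries, which may be technical.

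Cells that burn glucose quickly make lactate and protons, and phagocytes make more acid when their oxidase fires. Monocarboxylate carriers take lactate out together with a proton, bicarbonate carriers load or unload base, and the voltage-gated proton channel lets protons leave as charge builds up. Carbonic anhydrases turn carbon dioxide and water into bicarbonate and a proton, and so supply or clear the substrates of these carriers on either face of the membrane.

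With added KCl, Car4 mRNA fell to about 0.511 of its control level and Car13 mRNA rose to 1.64-fold. Hvcn1 (1.40-fold), Slc4a2 (1.29-fold) and Slc4a7 (1.18-fold) also rose. Car2, Car9, Slc16a1 and Slc16a3 did not pass the test. This made 4 genes that rose, 1 that fell and 4 that did not pass at an adjusted p under 0.05 in edgeR's quasi-likelihood test, where 22.9% of all tested genes passed (12.4% higher and 10.5% lower in KCl). The KCl libraries lay wholly above or wholly below the control libraries for 6 of the 9 genes, as they did for 38.5% of all tested genes. The median log2 fold change was 0.22 over the 9 genes and 0.00 over all tested genes, whose median absolute log2 fold change was 0.17. Since the 9 genes were named with earlier results of these data known, these counts are a description.

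Library totals ran from 14118724 to 21694831 counts. The counts of control 4 and KCl 4 depended on those of the other libraries. The mean level of this pair, divided by the mean of the other 4, had an SD of 0.00953 on the log2 scale over 8231 well-counted genes, where counting noise alone gives 0.0441. The other 14 ways of taking a pair gave 0.123 to 0.262. The 9 genes showed it too, with ratios from 0.994 for Slc4a7 to 1.02 for Car9. The test on all 6 libraries treats its libraries as independent, so its SEs and p-values may be too small. The exact permutation tests below take every arrangement of the 6 libraries as equally likely, which this dependence may break. A fit that leaves out 1 library keeps control 4, KCl 4 or both, so passing such fits does not answer this. The 9 genes are therefore given with and without this pair. Without it, each of the 9 genes kept its direction. In edgeR's test 7 of the 9 had an unadjusted p under 0.05, as did 4037 of all 13525 tested genes. After adjustment 0 of the 9 passed, where 0.458% of all genes did. Of the 76 other tested genes in the pathway lists below, 27 passed with all 6 libraries and 0 without this pair in edgeR's test (37 had an unadjusted p under 0.05), so no call on a list gene held without the pair. The label was checked against 8 myeloid marker genes, of which 5 rose and 3 did not pass. Spi1, Cebpa, Csf2ra and Csf1r, each above 88 CPM in every library, rose in KCl, while Itgam, Ptprc and Csf2rb did not pass. Eosinophil markers summed to 2353 to 2584 CPM (the count scaled to library size with TMM factors) in control and 962 to 1118 in KCl, and 5 of 8 fell. Dendritic cell markers summed to 1694 to 2157 and 1159 to 1446 CPM, and 3 of 9 tested fell. Neutrophil markers (4 of 10 rose, 14830 to 15680 and 17590 to 23920 CPM) and monocyte and macrophage markers (3 of 10 rose, 1372 to 1642 and 1862 to 2157 CPM) had higher sums in KCl. The part of these cell types in the results below was not tested, and in bulk RNA fewer cells of a type and less RNA per cell cannot be told apart.

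**Figure D1:**
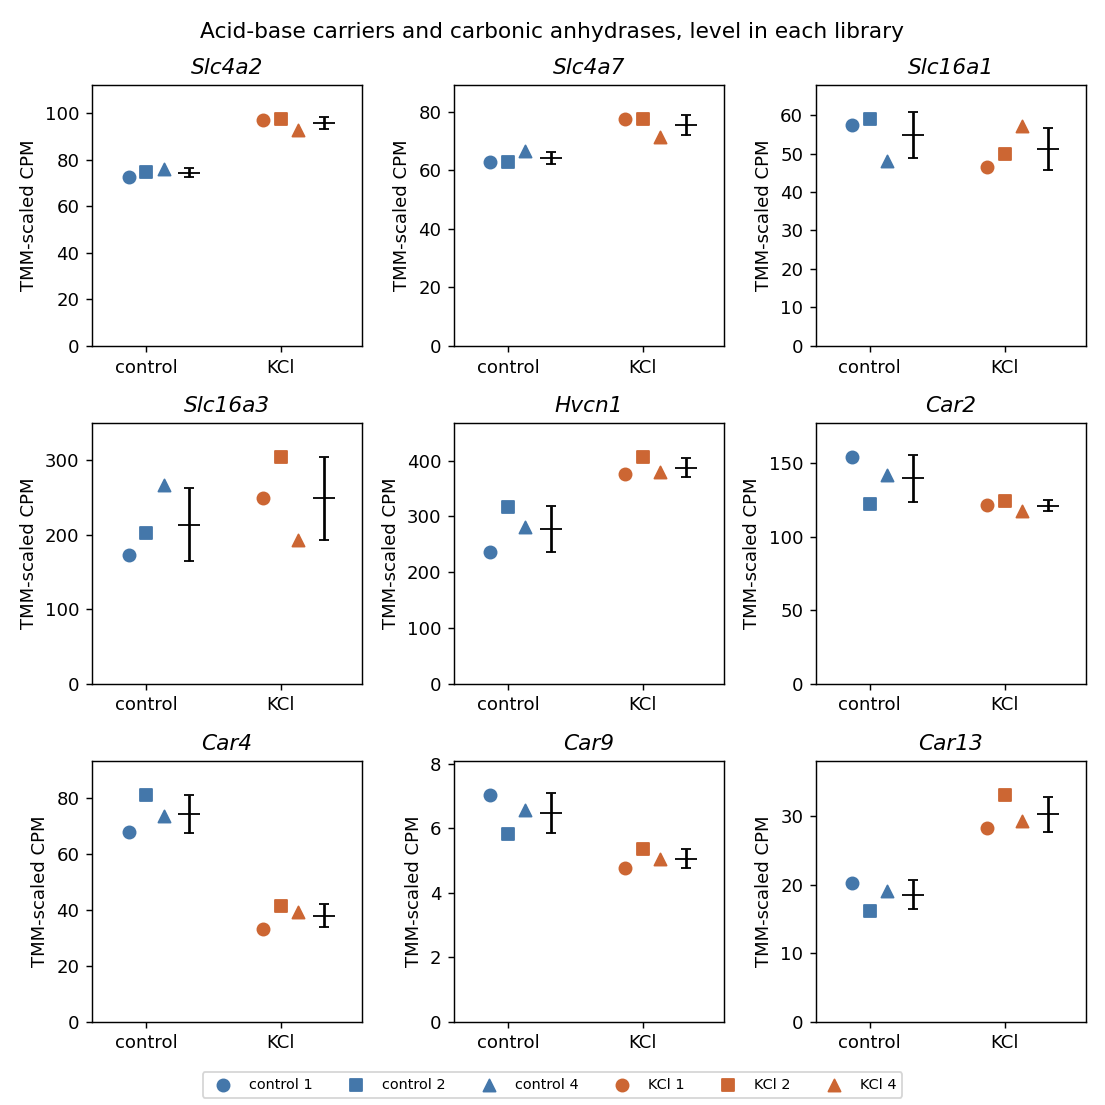
Level of each of the 9 genes in TMM-scaled CPM (y axes, from 0) in the 3 control (blue) and 3 KCl (orange) libraries, with circles for replicate 1, squares for 2 and triangles for 4, and the mean ± SD in black. The groups are apart for Slc4a2, Slc4a7, Hvcn1, Car4, Car9 and Car13. For Slc16a1 and Slc16a3 the triangles stand in the reverse order of the circles and squares. The libraries shown by triangles depend on the others.

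Slc4a2 encodes an anion exchanger that swaps bicarbonate inside the cell for chloride outside and so loads the cell with acid. Its mRNA had 72.4, 74.6 and 76.2 CPM in control 1, 2 and 4 and 97.0, 97.5 and 92.8 CPM in KCl 1, 2 and 4. Every KCl library was above every control library. The mean rose from 74.4 ± 1.89 to 95.8 ± 2.56 CPM (SD, n = 3 per group), a log2 fold change of 0.36 ± 0.05 (SE) with an edgeR adjusted p of 0.00577. Without the pair numbered 4 it was 0.40 ± 0.07 with an adjusted p of 0.0747. Slc4a2 (ENSMUSG00000028962) is a protein-coding gene on chromosome 5 of GRCm38 (mm10), from 24423837 to 24440950 on the plus strand. Its exons share 1242 bases with other genes, among them Fastk on the other strand, and the strand setting of the counting is not given in the sources used here. Fastk itself stood at 31.6 to 35.7 CPM in control and 32.4 to 34.4 CPM in KCl.

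Slc4a7 encodes a sodium-bicarbonate cotransporter that brings base in. Its mRNA had 62.8, 62.9 and 66.6 CPM in control and 77.5, 77.4 and 71.4 CPM in KCl, again without overlap. The log2 fold change of 0.24 ± 0.06 passed narrowly (edgeR adjusted p = 0.0314). It did not pass when any 1 library was left out (adjusted p from 0.0539 to 0.0884), nor with upper-quartile scaling (0.0537), nor without the pair numbered 4 (0.30 ± 0.07, adjusted p = 0.0962). Slc4a7 (ENSMUSG00000021733) lies on chromosome 14 from 14702279 to 14799940 on the plus strand. On the scale of FPKM (fragments per kilobase of gene, scaled to depth), which allows genes to be compared, the log2 ratio of Slc4a7 to Slc4a2 was 0.48, 0.44 and 0.49 in control and 0.36, 0.35 and 0.31 in KCl. The ratio was lower in every KCl library, by 0.13 on average, and the exact 2-sided permutation test gave p = 0.1, the smallest that 3 against 3 libraries allow. Without the pair numbered 4 the difference was -0.10.

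Other bicarbonate and anion carriers moved both ways. Of 21 genes of the Slc4 and Slc26 families, 18 were in the table and 13 were tested, of which 4 rose (both genes above included), 3 fell and 6 did not pass. The median of the 13 was 0.02. Slc4a8, a sodium-driven chloride-bicarbonate exchanger, fell from 57.1 to 19.3 CPM (log2 fold change -1.56 ± 0.24, edgeR adjusted p = 0.00792, and 0.0846 without the pair numbered 4). It had 67.2, 46.3 and 57.8 CPM in control and 24.5, 13.5 and 20.0 CPM in KCl. Slc4a3, a further anion exchanger, fell from 2.72 to 1.23 CPM (-1.14 ± 0.22), but did not pass without control 4 or KCl 4 (adjusted p up to 0.0642). Slc26a6, which exchanges several anions, rose from 6.69 to 9.47 CPM (0.50 ± 0.10) and did not pass without control 4, KCl 1 or KCl 4 (up to 0.0695). The scarce Slc26a8 rose from 0.711 to 1.95 CPM (1.46 ± 0.25, adjusted p = 0.101 without the pair).

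Slc16a1 encodes MCT1, a carrier that moves lactate and a proton in either direction. Its mRNA had 57.5, 59.0 and 48.0 CPM in control and 46.6, 49.9 and 57.2 CPM in KCl. Control 4 lay among the KCl values and KCl 4 among the control values. The log2 fold change was -0.10 ± 0.11 (edgeR adjusted p = 0.623) with 6 libraries and -0.27 ± 0.08 (adjusted p = 0.124) without the pair numbered 4. Slc16a1 (ENSMUSG00000032902) lies on chromosome 3 from 104638668 to 104658462 on the plus strand.

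Slc16a3 encodes MCT4, the lactate exporter of cells that rely on glycolysis, and is a known target of the hypoxia factor HIF-1. Its mRNA had 172.4, 201.9 and 267.6 CPM in control and 250, 305 and 193 CPM in KCl. KCl 1 and KCl 2 were above control 1 and control 2, while KCl 4 was below control 4. The log2 fold change was 0.22 ± 0.22 (edgeR adjusted p = 0.583) with 6 libraries, 0.57 ± 0.14 (adjusted p = 0.0947) without the pair numbered 4, 0.41 when only control 4 was left out and 0.38 when only KCl 4 was. Leaving out control 1 gave 0.08 and leaving out KCl 2 gave 0.05. Slc16a3 (ENSMUSG00000025161) lies on chromosome 11 from 120948480 to 120960868 on the plus strand. Per length, the log2 ratio of Slc16a3 to Slc16a1 was 0.60, 0.79 and 1.495 in control and 1.44, 1.63 and 0.77 in KCl. The groups overlapped, and the difference of 0.32 had an exact permutation p of 0.5. Without the pair numbered 4 the difference was 0.84.

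The libraries with the most Slc16a3, control 4, KCl 1 and KCl 2, were also the highest 3 for 9 of the 15 tested HIF-1 targets outside the 9 genes, and for 10.8% of all tested genes, among them leukocyte genes such as Ptprc and Itgam. The glucose transporter gene Slc2a1 had 156.1, 172.9 and 215.3 CPM in control and 211.7, 237.0 and 169.0 CPM in KCl. Ankrd37 had 4.33, 4.26 and 7.98 CPM in control and 8.56, 8.34 and 4.65 CPM in KCl. Neither passed (edgeR adjusted p of 0.544 and 0.514). Of 15 HIF-1 targets tested besides the 9 genes, 2 fell and 13 did not pass. The list median was 0.15. Those that fell were Ero1l, an oxidase of the endoplasmic reticulum (344.7 to 204.1 CPM, -0.76 ± 0.15), and the stress gene Ndrg1 (129.7 to 68.4 CPM, -0.92 ± 0.24). Ero1l did not pass without control 4 or KCl 4 (adjusted p up to 0.0565), and Ndrg1 did not pass without control 1, control 4 or any 1 KCl library (up to 0.114).

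The chaperones that bring monocarboxylate carriers to the membrane moved in opposite directions. Bsg (basigin), the partner of MCT1 and MCT4, had 220.3, 194.9 and 206.6 CPM in control and 157.0, 155.4 and 156.1 CPM in KCl. It fell by 0.41 ± 0.06 on the log2 scale (edgeR adjusted p = 0.00617), and passed in the 6 fits that left out 1 library but not without the pair numbered 4 (-0.41 ± 0.09, adjusted p = 0.0833). Emb (embigin), the usual partner of MCT2, had 547.5, 643.9 and 609.2 CPM in control and 744.6, 826.4 and 754.5 CPM in KCl. It rose by 0.37 ± 0.08 (adjusted p = 0.0209) and did not pass without control 4, KCl 2 or KCl 4 (up to 0.0701). Slc16a7, which encodes MCT2, rose from 3.71 to 6.57 CPM (0.82 ± 0.14, edgeR adjusted p = 0.106 without the pair). In the whole list of 11 tested carriers and chaperones, 2 rose, 1 fell and 8 did not pass, with a median of -0.10. Of the enzymes that make or use their cargo, 3 of 10 rose, 2 fell and 5 did not pass, with a median of 0.02. The mitochondrial pyruvate carrier subunit Mpc2 rose from 40.5 to 63.0 CPM (0.64 ± 0.07, edgeR adjusted p = 0.0686 without the pair) and pyruvate kinase Pkm from 2218 to 2813 CPM (0.34 ± 0.07), while the kinase gene Pdk3, which restrains pyruvate oxidation, fell from 95.2 to 72.8 CPM (-0.39 ± 0.07). The scarce lactate dehydrogenase gene Ldhc fell from 1.96 to 0.498 CPM. Pkm did not pass without control 1, control 4 or KCl 4 (edgeR adjusted p up to 0.0746), nor Pdk3 without KCl 4 (0.0536).

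**Figure D2:**
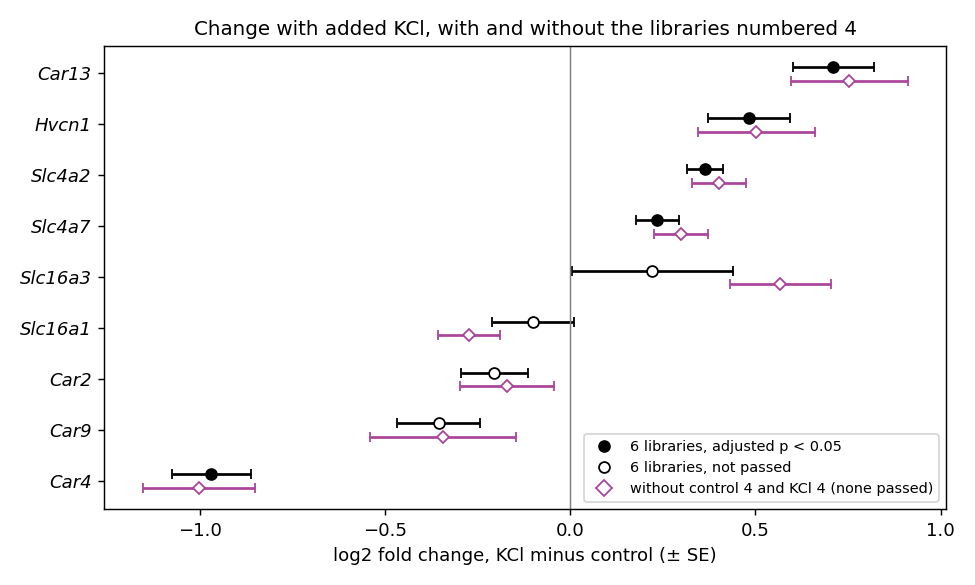
Log2 fold change of the 9 genes, KCl minus control, with its SE (x axis), from all 6 libraries (circles, filled where the adjusted p was under 0.05) and without control 4 and KCl 4 (diamonds). The diamond lies beyond the circle for Slc16a3 (0.57 against 0.22) and near it for Car4 and Car13 (0.75 against 0.71).

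Hvcn1 encodes the voltage-gated proton channel, which in phagocytes lets out the protons left behind when the NADPH oxidase moves electrons across the membrane. It was the most abundant of the 9 mRNAs per length in both groups, at 66.3 ± 9.60 FPKM in control and 91.1 ± 1.68 in KCl. The CPM values were 235.3, 316.4 and 281.0 in control and 375.6, 406.9 and 380.0 in KCl. The groups did not overlap, and the control libraries were the more scattered. The log2 fold change was 0.48 ± 0.11 (edgeR adjusted p = 0.0260), and it did not pass without control 4 (0.0762), KCl 1 (0.0664), KCl 2 (0.0804) or KCl 4 (0.0703). Without the pair numbered 4 it was 0.50 ± 0.16 (adjusted p = 0.127). Hvcn1 (ENSMUSG00000064267) lies on chromosome 5 from 122206804 to 122242297 on the plus strand, and its exons share 1574 bases with Tctn1 on the other strand, which stood at 8.91 to 9.89 CPM in control and 9.85 to 10.4 in KCl. B cells also carry this channel. The 8 B cell markers, all detected, summed to 21.1 to 30.5 CPM in control and 25.7 to 38.1 CPM in KCl, and 1 of the 6 tested (Ms4a1) rose. Their part in the Hvcn1 result was not tested.

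The sodium-proton exchanger list, which holds Hvcn1, had 12 tested genes, of which 3 rose, 1 fell and 8 did not pass, with a median of 0.16. Slc9a7, an exchanger of internal membranes, rose from 5.88 to 9.40 CPM (0.68 ± 0.14), and the scaffold gene Slc9a3r1 from 197.0 to 222.4 CPM (0.17 ± 0.05). Tesc, which encodes tescalcin, a binding partner of the exchanger NHE1, fell from 10.2 to 3.46 CPM (-1.55 ± 0.32). Slc9a3r1 did not pass when any 1 library was left out (edgeR adjusted p up to 0.139), Slc9a7 without control 4, KCl 1 or KCl 4 (up to 0.0668), and Tesc without control 4, KCl 2 or KCl 4 (up to 0.0605).

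Car4 encodes a carbonic anhydrase anchored to the outer face of the membrane. Its mRNA had 68.0, 81.3 and 73.6 CPM in control and 33.3, 41.3 and 39.2 CPM in KCl. The highest KCl library was far below the lowest control library. The mean fell from 74.3 ± 6.67 to 38.0 ± 4.17 CPM (SD, n = 3 per group), a log2 fold change of -0.97 ± 0.11 with an edgeR adjusted p of 0.00387. It passed in all 6 fits that left out 1 library (adjusted p from 0.0134 to 0.0194), and without the pair numbered 4 it was -1.003 ± 0.15 (0.0686). Car4 (ENSMUSG00000000805) lies on chromosome 11 from 84957786 to 84966044 on the plus strand. The 250 bases before its RefSeq start (GRCm38.p6, chr11:84957504-84957753, plus strand) are shown because it changed most of the 9 genes.
Car4: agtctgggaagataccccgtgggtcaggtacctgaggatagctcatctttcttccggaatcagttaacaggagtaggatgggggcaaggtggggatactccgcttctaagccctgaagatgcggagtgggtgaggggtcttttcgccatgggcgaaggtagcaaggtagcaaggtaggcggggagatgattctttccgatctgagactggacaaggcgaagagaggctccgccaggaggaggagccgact
Searched on both strands, this window held neither ACGTG, a form of the HIF-1 core, nor TGGAAA, a longer form of the NFAT core GGAAA. Only these exact strings were searched. The shorter GGAAA is present in the window as its reverse complement, tttcc.

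Car13 encodes a cytosolic carbonic anhydrase. Its mRNA had 20.3, 16.2 and 19.1 CPM in control and 28.4, 33.2 and 29.3 CPM in KCl, so that each KCl library exceeded each control library. The mean rose from 18.5 ± 2.13 to 30.3 ± 2.55 CPM, a log2 fold change of 0.71 ± 0.11 (edgeR adjusted p = 0.00796). Like Car4 and Slc4a2, it passed in all 6 fits that left out 1 library (0.0169 to 0.0322), and these were the only 3 of the 9 genes to do so. Each such fit kept control 4, KCl 4 or both, and so is not a check on the dependence of that pair. Without the pair numbered 4 the log2 fold change was 0.75 ± 0.16 (adjusted p = 0.0825). Car13 (ENSMUSG00000027555) lies on chromosome 3 from 14641727 to 14663002 on the plus strand.

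Car2, the fast cytosolic enzyme of red cells and osteoclasts, lies in the same cluster on chromosome 3 (ENSMUSG00000027562, 14886273 to 14900770, plus strand). It had 154.3, 122.5 and 142.1 CPM in control and 121.7, 124.5 and 117.1 CPM in KCl. Control 2 lay among the KCl libraries. The log2 fold change of -0.20 ± 0.09 did not pass (edgeR adjusted p = 0.169), and did pass without control 2 (-0.29, adjusted p = 0.0318). The genes between Car13 and Car2 in the cluster, Car1 and Car3, had at most 3 counts in any library. Erythroid markers summed to 3.16 to 5.05 CPM in control and 4.20 to 4.65 CPM in KCl.

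Car9 encodes a carbonic anhydrase of the plasma membrane that HIF-1 induces. It was the scarcest of the 9 genes per length and had 7.05, 5.82 and 6.57 CPM in control and 4.78, 5.36 and 5.03 CPM in KCl. Each KCl library was below each control library, but the log2 fold change of -0.36 ± 0.11 did not pass (edgeR adjusted p = 0.0691). It passed with upper-quartile scaling (-0.40, adjusted p = 0.0433) and without control 2 (-0.43, 0.0453), and was -0.34 ± 0.20 (0.290) without the pair numbered 4. Car9 (ENSMUSG00000028463) lies on chromosome 4 from 43506966 to 43513729 on the plus strand and shares 214 exon bases with the antisense gene Gm12454, which stood at 1.52 to 2.52 CPM over the 6 libraries.

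**Figure D3:**
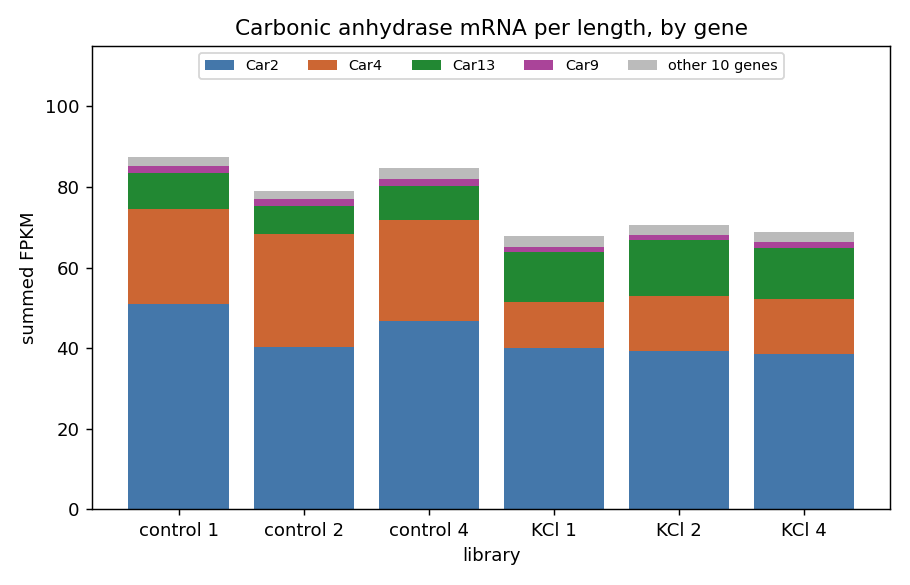
Summed FPKM of the 14 carbonic anhydrase genes in the table (y axis, from 0) for each library (x axis), divided into Car2, Car4, Car13, Car9 and the other 10 genes. The sum was 79.1 to 87.4 in control and 67.9 to 70.5 in KCl, with a smaller Car4 part and a larger Car13 part in KCl.

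Taken per length, the mRNA of all 14 carbonic anhydrase genes summed to 87.4, 79.1 and 84.6 FPKM in control and to 67.9, 70.5 and 68.8 FPKM in KCl. The mean was lower by 14.7 FPKM in KCl, with no overlap (exact permutation p = 0.1, the smallest possible), and the difference was -14.1 FPKM without the pair numbered 4. Car4, the enzyme of the outer face, gave 30.7 ± 4.30% of the sum in control and 18.6 ± 1.51% in KCl. Car13 gave 9.67 ± 0.651% and 18.9 ± 0.742%, and Car2 54.8 ± 3.71% and 56.9 ± 1.82%. The shares of Car4 and of Car13 did not overlap between the groups (exact permutation p = 0.1 for each), and those of Car2 did (p = 0.4). Of the 7 carbonic anhydrase genes tested, 2 rose and 1 fell, and 4 did not pass. Their median was -0.20. The gene that rose beside Car13 was Car7, at only 0.391 CPM in control and 0.786 CPM in KCl (1.02 ± 0.28, edgeR adjusted p = 0.0473). It did not pass when any 1 library but KCl 2 was left out (up to 0.169). Car7 passed with RLE scaling (edgeR adjusted p = 0.048) and in limma-voom (0.048), but not in DESeq2 (0.267). In edgeR it also failed with no filter (0.0967), library-size scaling (0.0562) and upper-quartile scaling (0.0555). Car5b, a mitochondrial enzyme (7.29 and 8.24 CPM), and Car12 (3.73 and 3.20 CPM) did not pass.

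In control the levels per length ran from Hvcn1 through Car2 (46.0 ± 5.36 FPKM), Car4 (25.6 ± 2.26), Slc16a3 (24.6 ± 5.52), Slc16a1 (12.5 ± 1.38), Slc4a7 (8.73 ± 0.266), Car13 (8.11 ± 0.940) and Slc4a2 (6.30 ± 0.138) to Car9 (1.75 ± 0.170). Neighbours whose libraries overlapped were Car4 with Slc16a3 and Slc4a7 with Car13. In KCl, Car13 (13.1 ± 0.763) stood above Car4 (12.9 ± 1.22), which stood above Slc16a1 (11.5 ± 1.34), and each of these neighbours overlapped the next. The other places in the order kept the sequence Hvcn1, Car2, Slc16a3 at the top and Slc4a7, Slc4a2, Car9 at the bottom.

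RefSeq promoter windows were matched for 6 of the 9 genes (7 windows), and the 250 bases before each start were searched on both strands. The windows of Slc16a1, Slc16a3 and Car9 held the letters ACGTG, as did 16.6% of all 32851 windows. That of Slc4a7 held TGGAAA, as did 18.6%. RefSeq starts need not be the first base of the GENCODE gene: the windows of Slc4a7, Slc4a2 and Slc16a3, and part of that of Car9, lie inside the gene spans given above. The sites are shown with 30 bases because Slc16a3 and Car9 are known HIF-1 targets, and the capitals mark ACGTG or its reverse complement CACGT.
Car9: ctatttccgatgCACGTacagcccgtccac
Slc16a3: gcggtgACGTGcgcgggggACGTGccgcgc
Slc16a1: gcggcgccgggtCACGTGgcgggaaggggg
These lie on GRCm38.p6 at chr4:43506996-43507025, chr11:120949034-120949063 and chr3:104638452-104638481, all on the plus strand. All 30 bases of the Car9 site and 11 of the Slc16a3 site are annotated as GENCODE exon, and 0 of the Slc16a1 site. Slc16a3 holds 2 copies, and in Slc16a1 a pair of overlapping matches on opposite strands forms CACGTG, which is also an E-box. Such matches are letters only, and binding was not measured.

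Of the 5 tested genes that sense protons or bicarbonate, 3 fell and 2 did not pass. Their median was -0.44. Gpr65, the acid-sensing receptor of leukocytes, fell from 30.4 to 20.5 CPM (-0.57 ± 0.10, edgeR adjusted p = 0.0110), and the related Gpr132 from 93.4 to 68.8 CPM (-0.44 ± 0.10). Gpr132 did not pass without control 1, control 4, KCl 2 or KCl 4 (adjusted p up to 0.0841). Gpr65 passed in the 6 fits that left out 1 library, but not without the pair numbered 4 (adjusted p = 0.101) or with a replicate block (0.0599).

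Of 12 tested genes that osteoclasts use to secrete acid or digest bone, several of them also lysosomal, 5 rose and 7 did not pass. The median was 0.23. The acid phosphatase Acp5 rose from 9.56 to 22.8 CPM (1.26 ± 0.11), the cathepsin Ctsk from 5.95 to 17.7 CPM (1.57 ± 0.17), the chloride-proton exchanger Clcn7 from 129.5 to 190.7 CPM (0.56 ± 0.08) and its partner Ostm1 from 79.9 to 108.0 CPM (0.43 ± 0.06). Without the pair numbered 4 the edgeR adjusted p was 0.0522 for Acp5, 0.0680 for Ctsk, 0.0789 for Clcn7 and 0.0708 for Ostm1. The fifth, the proton pump subunit gene Tcirg1, had 249.7, 335.1 and 306.1 CPM in control and 485.4, 495.6 and 469.1 CPM in KCl.

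**Figure D4:**
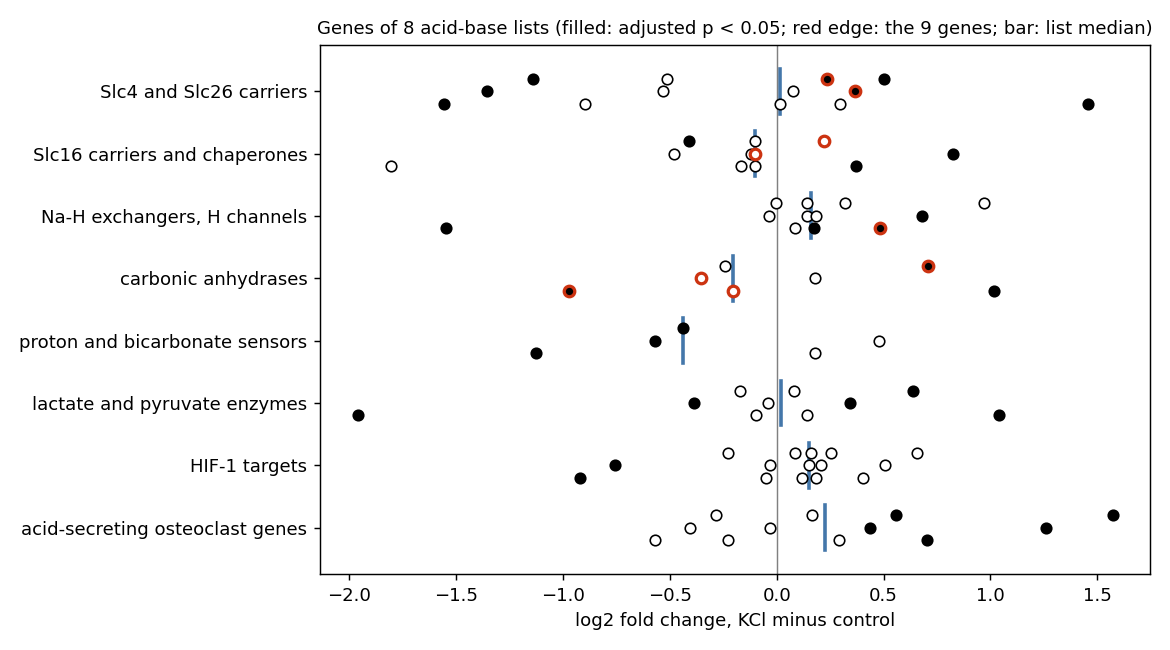
Log2 fold change, KCl minus control (x axis), of each tested gene of the 8 acid-base lists (rows); filled points passed at an adjusted p under 0.05, red edges mark the 9 genes and blue bars the list medians. The medians run from -0.44 for proton and bicarbonate sensors to 0.23 for osteoclast genes.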

How the data were processed

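Messenger RNA was measured in 6 libraries, 3 without and 3 with added KCl, and groups came from the treatment labels. Per the labels' protocols, RNA was taken up in Trizol and read on a NovaSeq. HISAT2 2.0.4, StringTie 1.3.3b and edgeR with build mm10 are named in the submitters' processing notes; the counting program is not given in the sources used here. The authors deposited a whole-number count and an FPKM per gene and library. FPKM equalled the count over library total and a fixed gene length (largest relative range 8.2e-05), and was used only for levels between genes. Of 19162 gene IDs, 19049 matched GENCODE M21, which gave the coordinates.

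The count test was that of edgeR 4.0.16 in R 4.3.3 (filterByExpr, minimum count 10 and minimum total 15; TMM; robust quasi-likelihood, 2-sided; Benjamini-Hochberg over all 13326 tested genes; threshold 0.05). Alternatives were scaling by RLE, upper quartile or library size, a mean CPM of 5 or no minimum as the filter, DESeq2 1.42.0, limma-voom (limma 3.58.1), a replicate block, replicate 4 as a batch term, and libraries left out. The members, the 8 pathway lists and the 10 marker lists were chosen with earlier results of these data known. Named genes were the 9 members, up to 4 further genes per list (by p), and the 3 genes most like Car4 (smallest p) and Hvcn1 (most abundant). Tcirg1, Car1, Car3 and Car6, genes that overlap a member, single marker genes and the motifs were picked after their values were seen. The comparison of the 3 libraries highest in Slc16a3 was likewise set up after its values were seen. Promoter windows are from RefSeq (GRCm38.p6). Values of some single genes are left out of the text.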

Additional observations from a re-analysis of the deposited data

How the results depend on the processing

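Over 16 alternatives for each of the 9 genes no log2 fold change changed sign; 122 of 144 values stayed on their side of the threshold, 19 fell short of it and 3 passed it. Scaling, filters, DESeq2 and limma-voom each called 5 of the 9 genes. With replicate 4 as a batch term 3 were called (Slc4a2, Car4, Car13), with 17 of the 76 other list genes, against 27, and 1573 of all genes, against 3057. Without control 4 and KCl 4 these counts were 0, 0 and 62 in edgeR's test. There, 7 of the 9 genes, 37 of the list genes and 4037 of all 13525 tested genes had an unadjusted p under 0.05. The Slc16a3 to Slc16a1 difference was 0.838. The cause of these shifts was not tested. With 1 library left out, 3 to 6 of the 9 genes, 13 to 24 list genes and 1439 to 2851 of all genes were called. The carbonic anhydrase sum differed by -17.0 to -12.8 FPKM, the Slc16a3 to Slc16a1 log2 ratio by 0.137 to 0.584 and the Slc4a7 to Slc4a2 ratio by -0.145 to -0.114. Car12, not called, ranged from -0.65 to 0.17 and was above 0 without control 2 (0.17) or KCl 2 (0.07), a cause not tested. The replicate block gave 4 of the 9 genes (without Slc4a7), 19 list genes and 1678 of all genes. Deviations of same-numbered libraries from their group means correlated at 0.043, -0.137 and -0.986 over 9287 genes. The dependence of control 4 and KCl 4 constrains these values, so they cannot show whether the replicate numbers pair the libraries. The fewest counts among the 9 genes were those of Car9 (91 to 148).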

Other observations

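The 3 genes whose log2 CPM followed Car4 most closely over the 6 libraries, among 9287 genes of at least 10 CPM on average, were Ahr, the aryl hydrocarbon receptor (Pearson r = 0.9998, log2 fold change -0.94 ± 0.11), Foxred2 (0.9984, -0.98 ± 0.09) and Cep170 (0.9983, -0.54 ± 0.08). For Hvcn1 the closest were Mpp1 (0.9995, 0.31 ± 0.08) and Serpinb10 (0.9994, 1.12 ± 0.25). These are descriptions over 6 points that share the group difference and the dependence of control 4 and KCl 4.

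Car6, a secreted carbonic anhydrase, had 15 counts in control 4 and 0 in each of the other 5 libraries.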
